A study of Mus musculus with 4 samples.

Results

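The genes of the proteasome subunits were followed in mouse embryonic stem cells (ESCs) with and without Naa10. Rows were taken by symbol: each row whose symbol, split at commas, began with Psma, Psmb, Psmc, Psmd, Psme, Psmf or Psmg followed by a digit, without the interferon-inducible Psmb8, Psmb9, Psme1 and Psme2. This gave 46 of the 14099 named rows. Of these members, 14 encode the core particle, 17 the regulatory particle, and 15 are assembly chaperones, other caps, an inhibitor, tissue forms or rows taken by the letters of their symbol alone. Naa10 is the catalytic subunit of NatA, an enzyme complex at the ribosome that acetylates the N-termini of nascent proteins. Polyadenylated RNA was sequenced from wild type (WT) and Naa10 knockout (Naa10-KO) cells, with 2 libraries per genotype. All 4 came from ESCs of the same F1 cross, Naa10-/X C57BL/6 mothers with WT JF1 fathers, and the WT cells were littermates of the Naa10-KO cells. Both genotypes grew in N2B27 medium with LIF and with inhibitors of Mek and Gsk3, for 5 passages on irradiated fibroblast feeders and then 5 without. The labels give neither the deleted part of Naa10 nor the sex of the embryos.

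The proteasome is the protease that degrades proteins tagged with ubiquitin. Its core particle is a barrel of stacked rings: outer rings of alpha subunits form the gate, and inner rings of beta subunits hold the catalytic sites. The regulatory particle caps the barrel. Its base carries a ring of ATPases that unfold the substrate, and its lid removes the ubiquitin chain. Pluripotent cells are known for high proteasome activity, and in human ESCs the lid subunit Psmd11 has been tied to it. Subunits of each ring are needed in equal numbers, and in many cells their genes are induced together by the transcription factor Nfe2l1 when the proteasome is inhibited.

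Values are in RPKM, the reads of a gene relative to its transcript's length and to the library's mapped reads. As a check of the labels, the row that joins Naa10 with its neighbour Renbp read 105 and 106 RPKM in the WT pair and 28.9 and 34.4 RPKM in the Naa10-KO pair. It was lower in both Naa10-KO libraries (log2 difference -1.71, SE 0.11, limma adjusted p = 0.0342). The adjusted p was 0.0821 with small RNA rows and rows at 0 removed, and 0.366 and 0.355 without WT replicate 1 and without WT replicate 2. The labels call the libraries biological replicates without saying whether they came from separate lines, so p-values measure only the spread between these libraries, which may be technical. Relative depth, read from the step size of low values, was 1 and 1.02 in WT and 1.46 and 1.68 in Naa10-KO. The estimate is rough. The ratio held in 13 of 22 classes of row length for WT replicate 2. For Naa10-KO it held in 12 of 19 for replicate 1 and 9 of 20 for replicate 2. The 10 ESC markers summed to 4759 and 4841 RPKM for WT, with 3797 RPKM for Naa10-KO replicate 1 and 4735 RPKM for replicate 2. The largest part of these sums was the joined row of Dppa5a and Ooep, with 2476 and 2578 RPKM for WT against 1698 and 2018 RPKM for Naa10-KO. The median ESC marker differed from the WT mean by -0.52 on the log2(RPKM + 1) scale for replicate 1 and by 0.23 for replicate 2. The 10 fibroblast markers summed to 153 and 160 RPKM for WT, with 505 RPKM for Naa10-KO replicate 1 and 119 RPKM for replicate 2, and none was at 0. The sum of replicate 1 was carried by Tagln at 192 RPKM and Acta2 at 132 RPKM, which smooth muscle and activated fibroblasts express. In replicate 2, Lum, Postn, Col3a1, Dcn and Col1a2 were at 11.3% to 30.8% of the WT mean, while Col1a1, Thy1, Tagln, Acta2 and Fbln1 ran from 58.0% to 116%. In replicate 1, Lum and Fbln1 were at 79.8% and 79.9%, and the rest were above the WT mean. The median difference of the fibroblast markers from the WT mean was 0.86 on the log2(RPKM + 1) scale for replicate 1 and -0.82 for replicate 2. limma called none of the 10. Primitive endoderm markers summed to 18.2 to 23.7 RPKM. By the median, the Naa10-KO libraries thus lay on opposite sides of WT in the ESC markers and in the fibroblast markers, though not every marker did. Values are given below for each Naa10-KO library by itself. In bulk RNA, fewer cells of a type and less RNA per cell cannot be told apart.

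Proteasome genes were well expressed in both genotypes. In the WT mean, the 31 subunits of the core and regulatory particle ran from 67.6 RPKM for Psmd14 to 307 RPKM for Psmb3, a 4.53-fold range. Psmb3, a structural beta subunit, read 300 and 313 RPKM in the WT pair and 302 and 339 RPKM in the Naa10-KO pair. Psmd14, the lid enzyme that cuts the ubiquitin chain off the substrate, gave 64.5 and 70.8 RPKM for WT against 78.4 and 60.9 RPKM for Naa10-KO. Core genes filled 11 of the 15 highest places. Next to Psmb3 came Psmb2, Psma2, Psmb7 and Psmb1, and at the low end stood the lid genes Psmd14, Psmd13 and Psmd6 with the ATPase genes Psmc2 and Psmc3. Neighbours in this order were mostly not separable: in 12 of the 30 neighbouring pairs the WT libraries did not overlap. The coefficient of variation of the 31 levels was 37.2% and 37.1% for the WT libraries, 38.3% for Naa10-KO replicate 1 and 42.7% for replicate 2. The summed level of the 31 genes was 4345 and 4504 RPKM for WT against 4252 and 4183 RPKM for Naa10-KO, so both Naa10-KO sums lay just below both WT sums. The same order held over all tested rows, with 704468 and 698940 RPKM for WT against 674742 and 697859 RPKM for Naa10-KO.

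**Figure D1:**
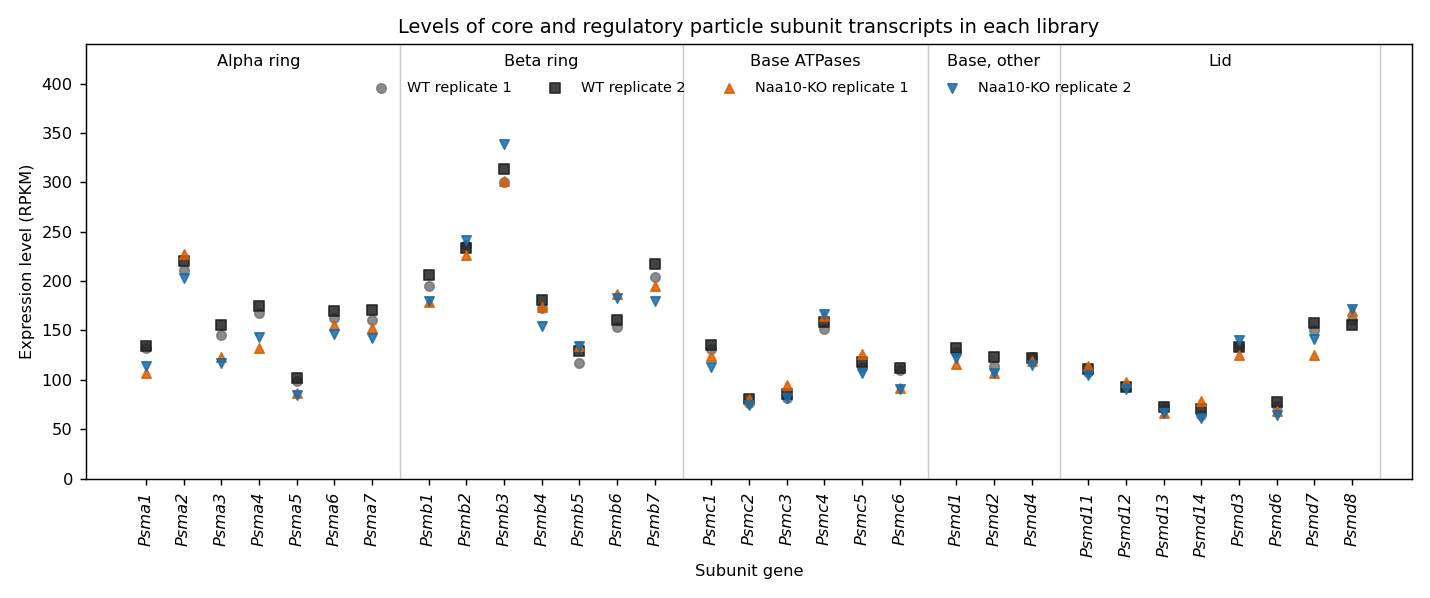
Level in RPKM (vertical axis) of the 31 subunit genes of the core and regulatory particle (horizontal axis, by sub-complex), with 1 point for each of the 4 libraries and no error bars. Psmb3 was highest at 300 to 339 RPKM, and most alpha ring genes have both Naa10-KO points under both WT points.

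The promoters of 4 of these genes are shown because the later results turn on them: Psma3 has the lowest log2 difference of the core, Psmb6 the highest, Psmc6 the lowest of the regulatory particle, and Psmd11 is the lid gene tied to pluripotency. Each line gives the 300 bases from 250 before to 50 after the gene start on the strand of the gene, 5′ to 3′, from RefSeq on GRCm38.p6. Capitals mark matches on either strand to TGACNNNGC (the core of the antioxidant response element, which Nfe2l1 binds), CCAAT (the box bound by NF-Y) and CCGGAAG (a site of ETS factors). The windows are chr12:70974373-70974672 for Psma3, chr11:70525107-70525406 for Psmb6, chr14:45329574-45329873 for Psmc6 and chr11:80428365-80428664 for Psmd11, all on the plus strand.
Psma3: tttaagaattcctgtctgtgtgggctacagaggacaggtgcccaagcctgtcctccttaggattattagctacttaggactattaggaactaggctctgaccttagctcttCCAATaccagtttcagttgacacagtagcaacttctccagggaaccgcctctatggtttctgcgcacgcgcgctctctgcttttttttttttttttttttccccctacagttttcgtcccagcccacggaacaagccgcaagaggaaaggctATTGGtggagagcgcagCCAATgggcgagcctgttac
Psmb6: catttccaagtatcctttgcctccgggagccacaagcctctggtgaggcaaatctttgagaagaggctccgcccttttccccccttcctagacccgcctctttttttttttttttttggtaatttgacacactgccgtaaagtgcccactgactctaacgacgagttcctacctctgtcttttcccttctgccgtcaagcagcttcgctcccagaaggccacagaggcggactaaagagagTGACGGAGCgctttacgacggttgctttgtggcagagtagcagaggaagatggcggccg
Psmc6: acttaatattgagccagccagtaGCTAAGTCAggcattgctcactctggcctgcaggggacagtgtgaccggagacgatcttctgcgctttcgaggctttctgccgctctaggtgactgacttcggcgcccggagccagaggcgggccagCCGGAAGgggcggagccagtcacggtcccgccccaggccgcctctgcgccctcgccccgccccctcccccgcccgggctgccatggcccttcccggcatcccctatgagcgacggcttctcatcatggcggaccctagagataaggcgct
Psmd11: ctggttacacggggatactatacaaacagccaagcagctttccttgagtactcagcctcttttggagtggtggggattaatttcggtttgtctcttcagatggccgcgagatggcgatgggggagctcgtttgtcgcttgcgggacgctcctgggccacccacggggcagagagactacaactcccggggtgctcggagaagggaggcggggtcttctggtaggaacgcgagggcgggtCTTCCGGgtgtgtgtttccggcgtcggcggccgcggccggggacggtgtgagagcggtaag

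Psma3 holds 3 CCAAT matches, 2 of them in the bases just after the start. Psmb6 has a TGACNNNGC match just before its start, Psmc6 has both TGACNNNGC and CCGGAAG, and Psmd11 has CCGGAAG. Of the 46 members, 38 had a window, and they had 40 windows. TGACNNNGC was in 6 of the 40 (15%) against 12.4% of all 32851 windows of the same length, and CCAAT was in 14 (35%) against 37.4%. CCGGAAG was in 16 (40%) against 8.86% of all windows and 17.2% of the 11505 windows of tested rows. The CCGGAAG matches lay mostly in genes of the regulatory particle, in 9 of 14 members with a window, against 1 of 11 for the core. CCAAT was in 5 of the 7 alpha ring genes and 1 of the 4 beta ring genes with a window. Psma4 and Psma5, both below WT in both Naa10-KO libraries, had no match. Psma2, which was not, had 1. The motifs do not overlap one another in the printed windows. These are matches of letters in a short window and not shown to be bound, and no test was made of them.

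Between genotypes, no member passed the test. Of the 45 members at 1 RPKM or more in at least 2 libraries, limma called 0 at an adjusted p under 0.05, where 0.764% of all 11912 tested rows were called. The lowest adjusted p was 0.128. At an unadjusted p under 0.05 there were 11 of 45 members, or about the share of all tested rows, 22.1%. By estimate 17 members were higher in Naa10-KO and 28 lower, with a median log2 difference of -0.060 against -0.056 over all tested rows. The remaining member, Psmb11, a beta subunit of thymus cortex cells, was under the filter at 0.746 and 0.731 RPKM for WT and 0.424 and 0.321 RPKM for Naa10-KO.

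Each Naa10-KO library was also set against both WT libraries. Naa10-KO replicate 1 was above both WT libraries for 14 of the 45 members, or 31.1%, against 38.3% of all tested rows, and below both for 25, or 55.6%, against 54.6%. Naa10-KO replicate 2 was above both for 13, or 28.9%, against 41.8% of all rows, and below both for 28, or 62.2%, against 48.3%. For replicate 1 the count above was 22 when each library was scaled to the same median. Both Naa10-KO libraries were above both WT libraries for 7 members, or 15.6%, against 24.4% of all rows, and below for 20, or 44.4%, against 34.9%. They lay on opposite sides for 9 members, or 20%, against 25.3%. The comparisons share the WT libraries, so the sides of the 2 Naa10-KO libraries are not independent.

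**Figure D2:**
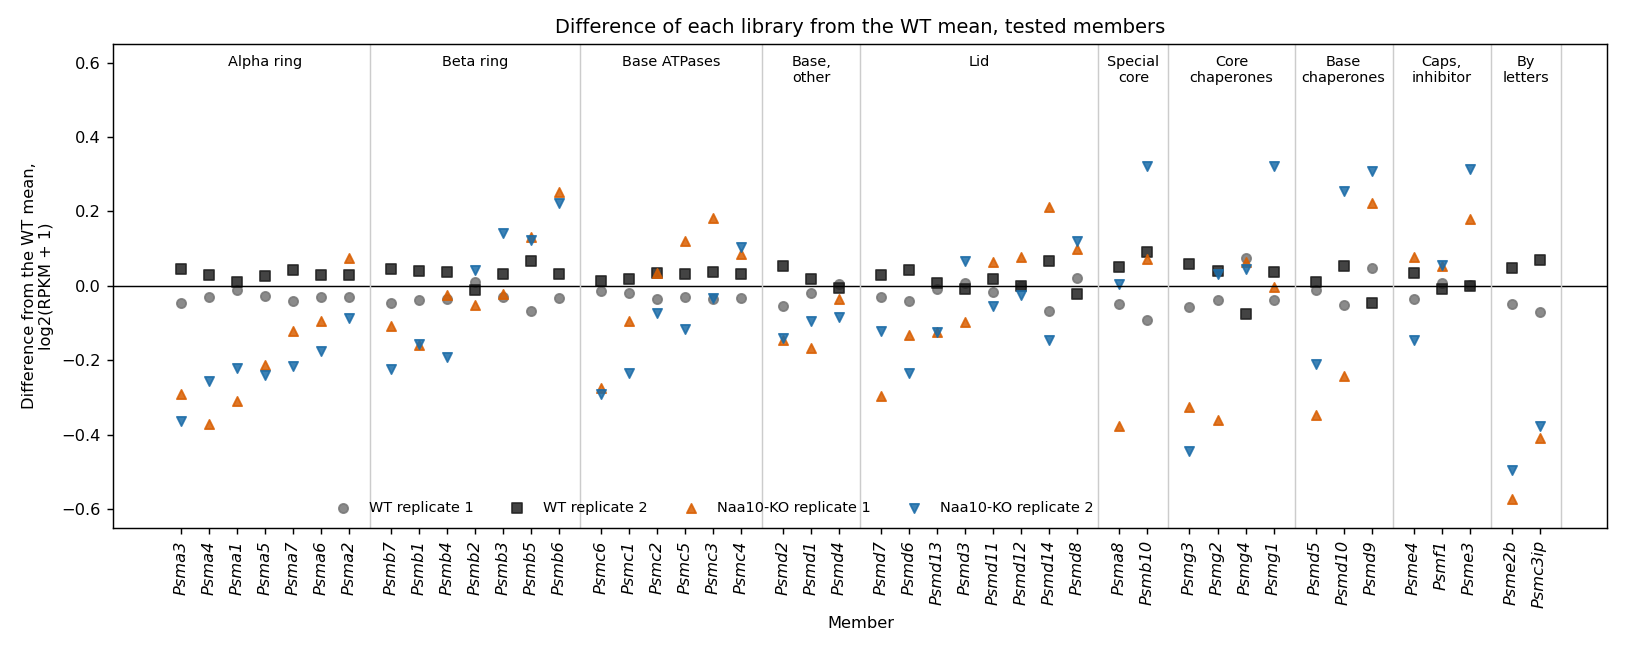
Difference of each library from the WT mean in log2(RPKM + 1) (vertical axis) for the 45 tested members (horizontal axis, by role, and sorted within a role by the mean Naa10-KO difference); each point is 1 library. The joined rows of Psmb5, Psme3, Psmg1 and Psme2b carry the member's symbol. Alpha ring genes other than Psma2 have both Naa10-KO points below both WT points, while Psmb5 and Psmb6 have both above.

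The alpha ring lay mostly on the lower side in Naa10-KO. It was singled out after the values were seen, since the planned comparison was of the core with the regulatory particle. In 6 of its 7 genes both Naa10-KO libraries lay below both WT libraries, against 34.9% of all tested rows, and Psma2 was the exception. The median difference from the WT mean was -0.21 for Naa10-KO replicate 1 and -0.22 for replicate 2 on the log2(RPKM + 1) scale, and the 2 WT libraries were 0.058 apart by the median gene. Over all tested rows the same median was -0.080 for replicate 1 and -0.025 for replicate 2, so the median row also lay below WT, and further below in replicate 1. Fibroblast markers summed to 505 RPKM in replicate 1 and 119 RPKM in replicate 2, and their part in the result was not tested. No alpha gene passed the test, and 4 of the 7 had an unadjusted p under 0.05, against 22.1% of all tested rows. After scaling to the same median, 4 of the 7 were below both WT libraries in replicate 1 and 7 in replicate 2.

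Psma3, whose promoter with 3 CCAAT matches is shown above, had WT levels of 146 and 155 RPKM and Naa10-KO levels of 123 and 117 RPKM. Both Naa10-KO libraries were lower than both WT libraries, at 81.6% and 77.5% of the WT mean. The log2 difference was -0.33 (SE 0.074, limma adjusted p = 0.141), from 150 ± 6.75 to 120 ± 4.34 RPKM (SD, n = 2 each). Psma2 read 211 and 220 RPKM in the WT pair and 227 and 203 RPKM in the Naa10-KO pair, with 1 Naa10-KO library above and the other below the WT pair (log2 difference -0.0053, adjusted p = 0.974). Its sign was positive after scaling to the same median and after quantile normalization. The other alpha genes were chosen after their values were seen, to complete the ring. Psma4 gave 168 and 175 RPKM for WT against 132 and 143 RPKM for Naa10-KO (adjusted p = 0.149). Psma1 read 132 and 135 RPKM in the WT pair and 107 and 114 RPKM in the Naa10-KO pair (adjusted p = 0.159), and Psma5 gave 98.4 and 102 RPKM for WT against 86.5 and 84.8 RPKM for Naa10-KO (adjusted p = 0.179). Psma6 and Psma7 were closer to WT, at 93.7% and 88.4% of the WT mean and at 91.8% and 86.0%. Psma3, Psma4 and Psma6 are among the 13 of 46 members that overlap another gene in the RefSeq table. Whether the protocol kept the strand is not stated, so their reads could include those of the partner. RefSeq also names 6 pseudogenes for members, which could share reads with them.

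The beta ring had no common side. Its median difference was -0.024 for Naa10-KO replicate 1 and 0.041 for replicate 2. In both Naa10-KO libraries, 2 genes were above and 2 below both WT libraries. Each is 28.6% of the ring, near the 24.4% above and 34.9% below of all tested rows. The 3 catalytic subunits lay on different sides. Psmb6, the subunit with caspase-like activity, had WT levels of 153 and 160 RPKM and Naa10-KO levels of 187 and 183 RPKM, above both WT libraries in both. Its log2 difference of 0.24 (SE 0.065) had an adjusted p of 0.166 in limma. Psmb5, the chymotrypsin-like subunit, measured in a row joined with the microRNA gene Mir686, read 117 and 129 RPKM in the WT pair and 135 and 134 RPKM in the Naa10-KO pair (adjusted p = 0.399). Psmb7, the trypsin-like subunit, gave 204 and 217 RPKM for WT against 195 and 180 RPKM for Naa10-KO, below both WT libraries in both (log2 difference -0.16, adjusted p = 0.310). Of the structural beta genes, Psmb1 was below WT in both Naa10-KO libraries at 89.4% and 89.7% of the WT mean, and Psmb2, Psmb3 and Psmb4 ran from 87.4% to 110%. Psmb6 and Psmb5 were the core genes above WT in both Naa10-KO libraries, and among the 11 core genes with a promoter window they were those with a TGACNNNGC match, which was seen after the values were known. Psmb1, Psmb2 and Psmb7 had no window. Of the other members with this match, Psmd9 was above WT in both, and Psmc6, Psmd12 and Psme4 were not.

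By the median gene, the core was lower in Naa10-KO than the regulatory particle. Its median difference from the WT mean was -0.035 for Naa10-KO replicate 1 and -0.095 for replicate 2, and that of the core was -0.10 and -0.18. Against the medians over all tested rows, -0.080 and -0.025, the core lay near the whole table in replicate 1 and below it in replicate 2, and the regulatory particle lay above it in replicate 1 and below it in replicate 2. With the Naa10-KO libraries averaged, the core median was -0.15 and the regulatory median -0.019. After scaling to the same median they were -0.094 and 0.034. Core minus regulatory was -0.065 and -0.089 in the separate libraries and -0.13 in their average, or -0.067 under quantile normalization. In the WT libraries the same measure was -0.013 and 0.013. These values are equal and opposite by construction, since the WT mean contains both libraries, so they understate the spread of WT. With 2 libraries against 2, an exact two-sided permutation test cannot give a p below 0.333, so no test of this difference was made. The alpha ring was lower relative to the beta ring by the same measure, with alpha minus beta at -0.19 and -0.26 in the Naa10-KO libraries. This comparison of the rings was not planned either. The ratio of the median core level to the median regulatory level was 1.46 and 1.46 for WT and 1.44 and 1.41 for Naa10-KO.

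**Figure D3:**
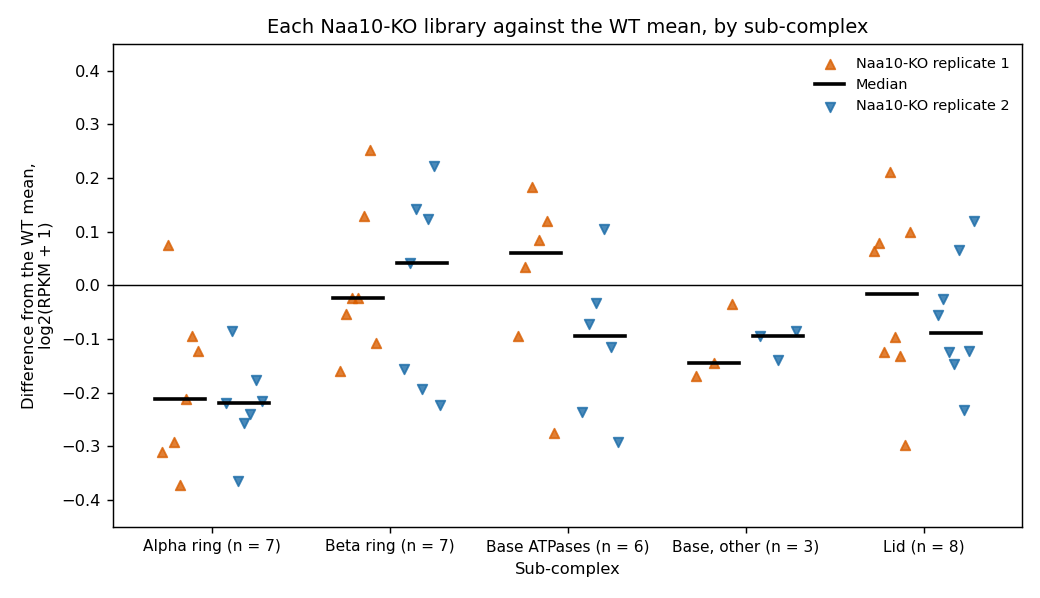
Difference of each Naa10-KO library from the WT mean in log2(RPKM + 1) (vertical axis) by sub-complex (horizontal axis); each point is 1 gene and each bar the median of a library. The alpha ring medians are -0.21 and -0.22, against -0.024 and 0.041 for the beta ring.

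Among the ATPases of the base, the sign depended on the library, with medians of 0.060 for Naa10-KO replicate 1 and -0.093 for replicate 2. Psmc6, whose promoter holds both TGACNNNGC and CCGGAAG, had WT levels of 110 and 112 RPKM and Naa10-KO levels of 91.5 and 90.4 RPKM. Both Naa10-KO libraries were lower, and the log2 difference of -0.28 (SE 0.063) had an adjusted p of 0.141. Psmc4 read 152 and 159 RPKM in the WT pair and 165 and 167 RPKM in the Naa10-KO pair (log2 difference 0.095, adjusted p = 0.440). Psmc1 was below WT in both, at 93.6% and 84.8% of the WT mean, and Psmc2, Psmc3 and Psmc5 ran from 92.2% to 114%. The other 3 genes of the base, Psmd1, Psmd2 and Psmd4, were below both WT libraries in both Naa10-KO libraries, as were 34.9% of all tested rows. None of the 3 had an unadjusted limma p under 0.05. Psmd2, which docks ubiquitin-like domains of shuttle factors, gave 114 and 123 RPKM for WT against 107 and 107 RPKM for Naa10-KO (adjusted p = 0.332). Psmd4, a ubiquitin receptor, gave 123 and 122 RPKM for WT against 119 and 115 RPKM for Naa10-KO (adjusted p = 0.602).

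Of the 8 lid genes, 1 was above both WT libraries in both Naa10-KO libraries, 3 were below and 4 lay on opposite sides. Over all tested rows the shares were 24.4% above, 34.9% below and 25.3% on opposite sides, so the lid genes below were near the share of all rows. Psmd11, the subunit tied to pluripotency, had WT levels of 108 and 111 RPKM and Naa10-KO levels of 114 and 105 RPKM. Naa10-KO replicate 1 was above WT and replicate 2 below, and the log2 difference was 0.0047 (SE 0.076, adjusted p = 0.974). Psmd14 had the same split, at 0.032 (SE 0.15, adjusted p = 0.912), and both signs turned when a library was left out. Psmd7, the partner of Psmd14 in the lid, read 151 and 157 RPKM in the WT pair and 125 and 142 RPKM in the Naa10-KO pair (log2 difference -0.21, adjusted p = 0.272). Psmd8 gave 161 and 156 RPKM for WT against 170 and 172 RPKM for Naa10-KO (log2 difference 0.11, adjusted p = 0.371), the lid gene above both WT libraries in both. The structural lid genes Psmd6 and Psmd13 were below in both, at 91.1% and 84.8% and at 91.6% and 91.7% of the WT mean, while Psmd3 and Psmd12 had 1 Naa10-KO library on each side.

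The differences in the particle were small beside those of other genes. The median size of the log2 difference was 0.13 over the 31 genes and at most 0.33, against a median of 0.22 over all tested rows and 0.19 over the 1794 rows that averaged 50 RPKM or more. None of the 31 differed by more than 0.5, where 16.1% of all tested rows and 13.6% of the well expressed rows did. The Naa10-KO libraries were also close to each other in these genes, with a median absolute difference of 0.094, against 0.25 over all rows and 0.18 over the well expressed rows. The WT libraries were 0.058 apart, against 0.054 and 0.040. Naa10-KO replicates 1 and 2 thus lay close to each other in this group of genes although their fibroblast markers differed; the part of those markers in the result was not tested. No share or median here comes from a test, since genes are not replicates.

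**Figure D4:**
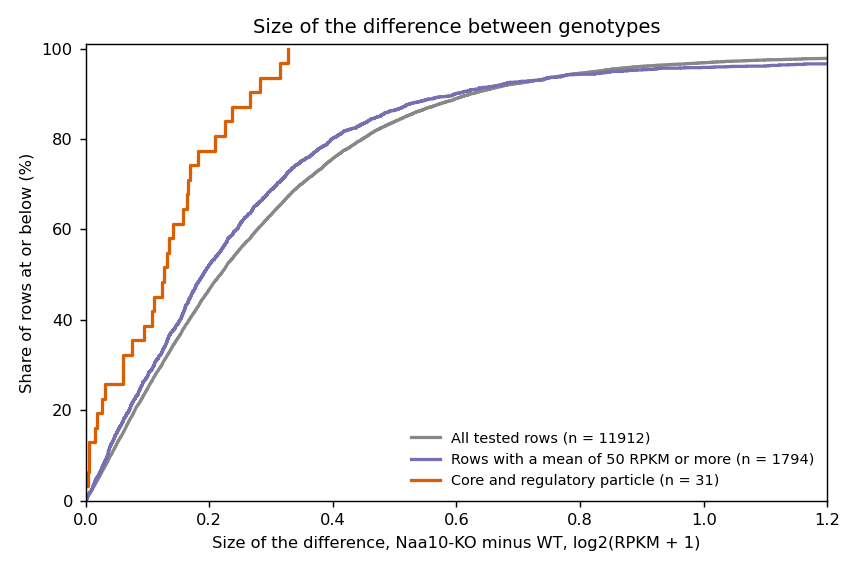
Cumulative share of rows in percent (vertical axis) at or below each size of the log2 difference between genotypes (horizontal axis, drawn to 1.2), for all 11912 tested rows, the 1794 rows that averaged 50 RPKM or more and the 31 particle genes. The particle curve reaches 100% at 0.33, where both other curves are well below it.

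The other members showed no common side either. Of the core assembly chaperones, Psmg3 had WT levels of 8.80 and 9.61 RPKM and Naa10-KO levels of 7.14 and 6.50 RPKM, lower in both (log2 difference -0.38, SE 0.11, adjusted p = 0.179). Psmg1, in a row joined with Brwd1, had WT levels of 77.2 and 81.4 RPKM and Naa10-KO levels of 79.0 and 99.4 RPKM (adjusted p = 0.516). Its higher mean came from Naa10-KO replicate 2 alone. Of the base chaperones, Psmd5 read 30.2 and 30.7 RPKM in the WT pair and 23.7 and 26.2 RPKM in the Naa10-KO pair (log2 difference -0.28, adjusted p = 0.199), and Psmd9 had WT levels of 12.8 and 11.9 RPKM and Naa10-KO levels of 14.6 and 15.6 RPKM (log2 difference 0.27, adjusted p = 0.233). They lay on opposite sides of WT, each without overlap. Psme3, in a row joined with Aoc2, encodes a nuclear cap that works without ubiquitin and gave 112 and 112 RPKM for WT against 127 and 139 RPKM for Naa10-KO (log2 difference 0.25, adjusted p = 0.194). Psme4, a cap that favours acetylated histones, read 49.2 and 51.7 RPKM in the WT pair and 53.3 and 45.5 RPKM in the Naa10-KO pair, above WT in Naa10-KO replicate 1 and below it in replicate 2. The inhibitor Psmf1, the chaperones Psmg2 and Psmg4 of the core and Psmd10 of the base had adjusted p from 0.572 to 0.988.

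Tissue forms of the core were low. Psma8, the alpha subunit of the testis, had WT levels of 5.08 and 5.52 RPKM and Naa10-KO levels of 3.85 and 5.32 RPKM (adjusted p = 0.557). Psmb10, an interferon-inducible catalytic subunit, read 9.41 and 10.8 RPKM in the WT pair and 10.7 and 12.9 RPKM in the Naa10-KO pair (adjusted p = 0.460). The remaining rows were taken by the letters of their symbol alone. The row of Psme2b, a copy of Psme2 joined with 9930111J21Rik1 and 9930111J21Rik2, gave 10.1 and 10.9 RPKM for WT against 6.72 and 7.14 RPKM for Naa10-KO (log2 difference -0.53, SE 0.11, adjusted p = 0.128). Psmc3ip, a factor of meiotic recombination that binds Psmc3 and is no subunit, gave 12.2 and 13.5 RPKM for WT against 9.41 and 9.64 RPKM for Naa10-KO (log2 difference -0.39, adjusted p = 0.160). Both rows were lower in both Naa10-KO libraries, and the reads of Psme2b could be shared with Psme2.

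Around the subunits, 37 further rows of the pathway were tested, and limma called 0 higher and 1 lower. The call was Psme2, an interferon-inducible subunit of another cap, left out of the members by rule, with 84.5 and 89.9 RPKM for WT against 45.4 and 45.2 RPKM for Naa10-KO. Psme2 fell by 0.93 in log2 (SE 0.073, adjusted p = 0.0418). With small RNA rows and rows at 0 removed, limma called 0 of 11661 rows in the whole table, and 2626 had an unadjusted p under 0.05. Of the 37 rows, 21 were higher and 16 lower, and 9 had an unadjusted p under 0.05, near the 22.1% of all tested rows. Among 7 further subunits and core chaperones, 5 were below both WT libraries in both Naa10-KO libraries, and 2 were above both. Over all tested rows the shares were 34.9% below and 24.4% above. Those below included Shfm1, a small lid subunit, and Pomp, which builds the core, besides Psme2. Shfm1 had WT levels of 144 and 150 RPKM and Naa10-KO levels of 126 and 125 RPKM (adjusted p = 0.169). Of 12 proteasome-bound enzymes and adaptors, 7 were higher, and Ubqln2, a shuttle factor, had the highest log2 difference, with 33.1 and 31.9 RPKM for WT against 58.5 and 68.7 RPKM for Naa10-KO (log2 difference 0.95, adjusted p = 0.0804).

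A list of 13 genes held the Nfe2l1 route and other factors tied to proteasome genes, such as Stat3 and the Foxo genes. Of these, 8 were higher and 5 lower, and none was called. Nfe2l1 itself read 48.1 and 48.9 RPKM in the WT pair and 62.3 and 51.8 RPKM in the Naa10-KO pair, above WT in both but closer to it in replicate 2. Stat3, which carries the signal of LIF, gave 20.9 and 21.4 RPKM for WT against 33.4 and 33.4 RPKM for Naa10-KO (log2 difference 0.64, adjusted p = 0.0841). Among 5 rows of ubiquitin and its activation, 4 were higher and 1 lower, and none was called. Uba1, the enzyme that activates ubiquitin, read 200.0 and 202 RPKM in the WT pair and 221 and 291 RPKM in the Naa10-KO pair (adjusted p = 0.293). Ubqln2, Stat3 and Uba1 each had no overlap between genotypes and did not pass the adjusted threshold. Such rows were common: of the 37 pathway rows, 14 were above both WT libraries in both Naa10-KO libraries and 9 below. Over all tested rows the shares were 24.4% above and 34.9% below.

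**Figure D5:**
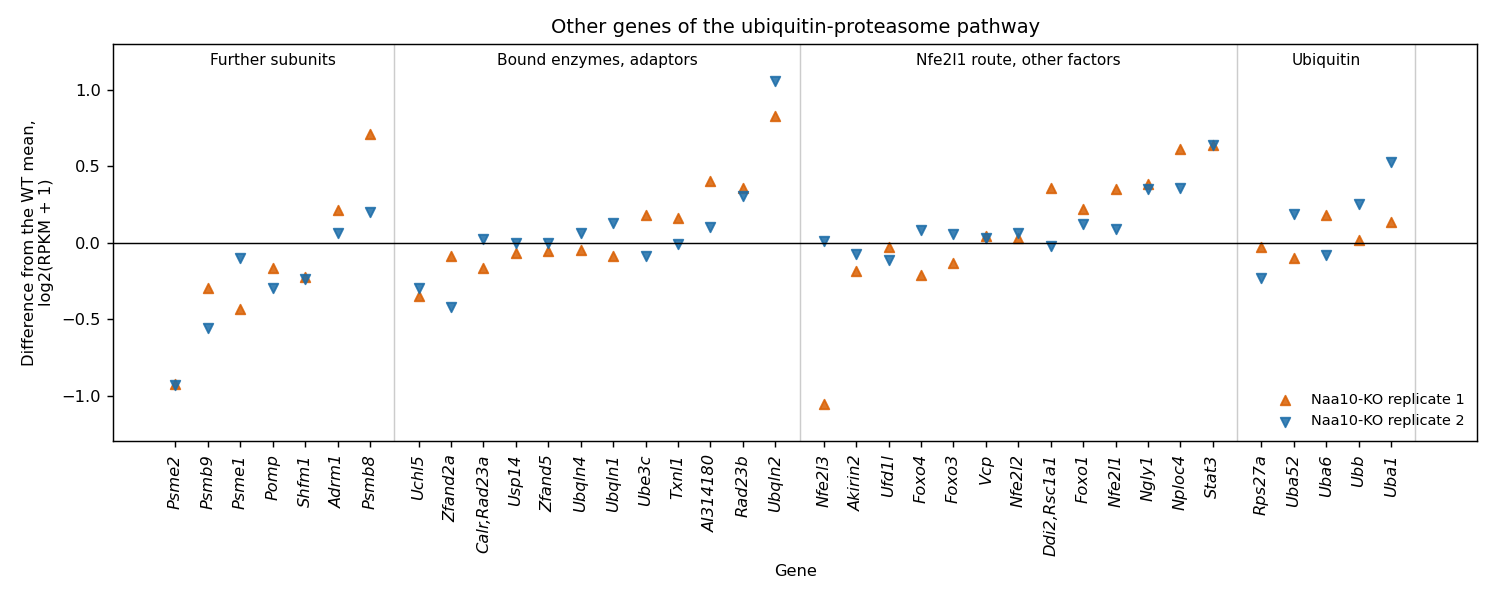
Difference of each Naa10-KO library from the WT mean in log2(RPKM + 1) (vertical axis) for 37 other pathway rows (horizontal axis, by list, sorted within a list); each point is 1 library. Psme2, at -0.93 by the mean of both, is the only row past the threshold, and Ubqln2 and Stat3 are the highest of their lists.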

How the data were processed

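RNA of 4 ESC libraries, 2 WT and 2 Naa10-KO, was analysed from 1 deposited table per library. The values are RPKM made by the authors, per the file headers. The submitters' processing notes name the build mm9 and, without versions, Cufflinks and bedtools. The aligner and annotation: not given in the sources used here. RPKM hide the absolute depth, and only relative depth was estimated, from the step size of rows up to 75 nt.

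The log2(RPKM + 1) values were fitted with limma (version 3.58.1, R 4.3.3) with a mean-variance trend, two-sided. The fit covered the 11912 rows that reached 1 RPKM in 2 or more libraries, and called a row at a Benjamini-Hochberg adjusted p under 0.05. Log2 differences with this pseudocount come out too small for low genes. The fit, with 2 residual degrees of freedom, was tested on simulated data. Python 3.11.15 and pandas 2.3.3 handled the tables. Named genes were the highest and lowest member of each role group, any called member, Psmd11, Psmb5, Psmd14, Psmb10, Psmc3ip and Naa10; genes outside this rule were chosen after their values were seen. Members, lists and the rule were chosen with earlier results of these data known. Alternatives were other pseudocounts, filters and scalings, no trend, a replicate block and leaving out each library. RefSeq promoters are of GRCm38.p6, not the build of the values, and served for sequences; the RefSeq gene table served for names of overlapping genes. A planned row of the pathway lists is not reported here.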

Additional observations from a re-analysis of the deposited data

How the results depend on the processing

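limma called 0 members in either direction under each of the alternatives that kept all 4 libraries, including the replicate block. The block called 17 rows higher and 27 lower over the whole table, against 26 and 65 without it. Deviations of same-numbered libraries had a correlation of -0.21, and no label says that a number marks a shared culture, so the numbers were not taken to pair the libraries; a block with the numbers crossed, added after the data were seen, called 41 higher and 92 lower, with 0 members.

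Leaving out 1 library at a time gave 0 to 4 members called higher and 0 to 13 lower. All of these calls came from leaving out a Naa10-KO library (4 and 12 without replicate 1, 3 and 13 without replicate 2), where the lone library is assumed to vary like the WT pair. The same fits also called more rows over the whole table, in both directions, than the fit of all 4 libraries did. Since a lone library has no spread of its own, the share of members called was not compared with that of all rows. The median log2 difference ranged from -0.18 to -0.10 for the core, from -0.095 to -0.024 for the regulatory particle, from -0.13 to -0.065 for core minus regulatory, and from -0.25 to -0.20 for the alpha ring. Signs turned for Psma2 (-0.085 to 0.075), Psma8 (-0.38 to 0.0053), Psmd11 (-0.055 to 0.065), Psmd14 (-0.15 to 0.21), Psme4 (-0.15 to 0.078) and Psmg1 (-0.0041 to 0.32).

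Scaling to the same median put the core median at -0.094, the regulatory median at 0.034, the alpha ring at -0.17, Psma2 at 0.047, Psme4 at 0.019 and the count above both WT libraries in Naa10-KO replicate 1 at 22. Quantile normalization put core minus regulatory at -0.067 and Psma2 at 0.022, and a pseudocount of 5 put the alpha ring at -0.22 against -0.23. The cause was not tested. Absolute depth, and so counting error, is unknown, and 2 libraries per group limit all statements.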

Other observations

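The WT libraries also differed from each other in one direction over the particle genes. WT replicate 2 was above WT replicate 1 in 26 of the 31 core and regulatory genes, or 83.9%, against 46.3% of all tested rows and 59.9% of the rows that averaged 50 RPKM or more. In the alpha ring this held for 7 of 7 genes and in the base ATPases for 6 of 6. The median of WT replicate 2 minus WT replicate 1 over the particle genes was 0.058 on the log2 scale.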
